A study of Sus scrofa with 16 samples.

Results

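The collagen genes COL1A1, COL1A2, COL3A1, COL4A1, COL5A1, COL5A2, COL6A1, COL6A2, COL6A3 and COL14A1 were read in colonic mucosa and liver of pigs at every probe that the array files name for them. A probe was taken where its gene name was that of a member or its description held the member's symbol in brackets, and control spots were left out. By this rule 33 of the 43603 probes belonged to 7 of the 10 genes, with 11 probes for COL14A1, 9 for COL6A3, 5 for COL5A2, 3 for COL5A1, 2 each for COL1A2 and COL6A2 and 1 for COL6A1. COL1A1, COL3A1 and COL4A1 had 0 probes by the rule. A further 14 probes outside the rule were read separately: 5 of COL4A1, matched through the gene number in RefSeq, and 9 that only the chain name in the description ties to a gene (3 of COL1A1, 2 of COL6A1 and 1 each of COL1A2, COL5A1, COL5A2 and COL6A2). No probe of COL3A1 was found by either route, so that gene was not analysed here.

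The pigs were male Duroc × Landrace × Large White crossbreds aged 170 d, and the 2 diets compared were a control diet with purified corn starch (CS) and one in which raw potato starch (RPS) took its place. The replaced starch made up 230 g/kg of feed, and 280 g/kg from an age of 120 d, over a trial of 100 days. Each tissue held 4 arrays per diet, 1 per pig, so that the 4 groups were colon CS, colon RPS, liver CS and liver RPS, 16 one-colour arrays in all. The comparison of diets asks how starch that reaches the colon undigested changes gene expression there and in the liver, and the comparison of tissues places each collagen. Raw potato starch is a resistant starch, which gut bacteria ferment. The colonic sample was mucosa scraped from the proximal colon and the liver sample was whole tissue, so that fewer cells of a type and less RNA per cell cannot be told apart in any value below.

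Collagens are the main structural proteins of connective tissue. Chains with the repeat glycine-X-Y wind into a triple helix, are secreted by fibroblasts, smooth muscle cells and, in the liver, stellate cells, and are built into larger assemblies outside the cell. Types I, III and V form the banded fibrils, with type V inside them as a regulator of their diameter. Type XIV, encoded by COL14A1, is no fibril-forming collagen but sits on the fibril surface. Type VI forms beaded microfibrils from several different chains. Type IV, encoded among others by COL4A1, forms the sheet-like network of basement membranes and is thus neither fibrillar nor microfibrillar.

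What the probes match can be read from their own sequence. A glycine codon begins with GG, so a stretch that encodes the triple helix carries GG followed by any base at every 9th position. At least 4 such codons in a row, in the strand of the probe, occurred in 30 of the 43603 probes on the array, which is 0.0688%. Among the collagens these were 2 of the 33 probes by the rule and 1 further probe. They are shown because they lie in coding sequence of the helix by this pattern, with the glycine codons in capitals, 5′ to 3′, as the array files give them:
COL14A1 A_72_P585771: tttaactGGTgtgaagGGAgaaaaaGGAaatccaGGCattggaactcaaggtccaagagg
COL6A3 A_72_P233842: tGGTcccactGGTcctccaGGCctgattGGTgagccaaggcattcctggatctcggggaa
COL6A1 A_72_P065906: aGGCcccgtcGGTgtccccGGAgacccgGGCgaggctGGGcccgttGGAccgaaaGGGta

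The further probe that only a chain name ties to COL1A2 held the pattern on the opposite strand. On the strand as printed on the array it had no run of 4, and its reverse complement, shown second with the glycine codons in capitals, had 6 in a row. In all, 19 of the 43603 probes held at least 4 on the opposite strand.
COL1A2 A_72_P053171, as on the array: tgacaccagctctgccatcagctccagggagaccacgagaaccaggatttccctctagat
COL1A2 A_72_P053171, reverse complement: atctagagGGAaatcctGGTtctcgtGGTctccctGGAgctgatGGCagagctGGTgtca

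For the type I chains, the brightest COL1A2 probe is shown with a further COL1A1 probe whose description names the chain. Another probe named for COL1A1 in this way, A_72_P198052, was brighter, with a mean of 8.43 over the 16 arrays against 7.90. The longest common run of the probes shown, in capitals, is 10 bases.
COL1A1 A_72_P442299: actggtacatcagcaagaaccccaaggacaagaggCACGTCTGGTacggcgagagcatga
COL1A2 A_72_P107881: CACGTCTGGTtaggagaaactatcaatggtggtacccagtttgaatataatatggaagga

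Several probes do not measure a gene independently. Of all pairs of collagen probes, 9 shared a run of at least 20 bases, 6 of them within COL14A1. In 3 pairs both probes had the same 60 bases: A_72_P157511 and A_72_P501554 of COL6A3, A_72_P598118 and A_72_P315543 of COL4A1, and A_72_P514059 and A_72_P267956 of COL6A2. The COL6A2 sequence is shown because its 2 spots gave different calls below.
COL6A2 A_72_P514059 and A_72_P267956: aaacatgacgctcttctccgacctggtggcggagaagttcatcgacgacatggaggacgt

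Signals of an array are given on the log2 scale after quantile normalization, for the diets over the 8 arrays of a tissue and for the tissues over all 16. The share of probes well above background was 64.9% to 72.2% on a colonic array and 61.1% to 65.9% on a liver array. The 4 arrays of each group lay on 1 slide and were scanned together, so the effect of a slide cannot be told apart from that of the diet. No slide held both tissues, so the same limit applies to the differences between the tissues. The median signal before normalization was 56.3 to 70.8 on the colon CS arrays against 34.2 to 42.5 on the colon RPS arrays. Of the 33 collagen probes, 27 were well above background on every array, 31 on every colonic array, and the COL6A3 probes A_72_P431419 and A_72_P341588 on 0 of 16. The labelled tissues were borne out by their markers, since the 13 hepatocyte genes on the array summed to at least 2629250 on a liver array and to at most 2710.42 on a colonic one. The 13 colonic epithelium genes summed to at least 210532 on a colonic array and to at most 49730 on a liver one. Of these, 4 (KRT20, CDX2, FABP2 and SLC26A3) were not well above background on any liver array, while the others were on at least 1.

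In the colon, collagen signals lay lower with the RPS diet at most probes. Of the 33 probes, 26 were lower with RPS and 7 higher, against 47.7% of all probes lower, and the median difference, RPS minus CS, was -0.42 on the log2 scale against 0.01 over all probes. These counts include the 2 COL6A3 probes not above background on any array, and probes of the same gene are not independent. Of the 27 probes above background on all 16 arrays, 21 were lower with RPS and 6 higher, with a median of -0.40. A probe was called where the unadjusted p of limma was under 0.05 and the fold change over 1.5, which 2.94% of all probes passed in either direction and 1.32% passed as lower with RPS. By this measure 6 of the 33 collagen probes fell and 0 rose. They were 3 probes of COL6A3 and 1 each of COL1A2, COL5A2 and COL6A2, and 2 of the COL6A3 probes have the same sequence. The genes were chosen with earlier results of these data known. Setting their counts against all probes, here and below, is thus no independent test. For these 6, an exact permutation test (two-sided) had p from 0.0571 to 0.0857, where 0.0286 is the least possible. Groups without overlap occurred at 0 of the 33 probes, against 1.43% of all probes lower with RPS and 5.08% higher. The smallest adjusted p among the 33 probes was 0.789 (limma, Benjamini-Hochberg over all probes), and 0 of the 43603 probes passed an adjusted 0.05, with 2362 under an unadjusted 0.05.

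**Figure D1:**
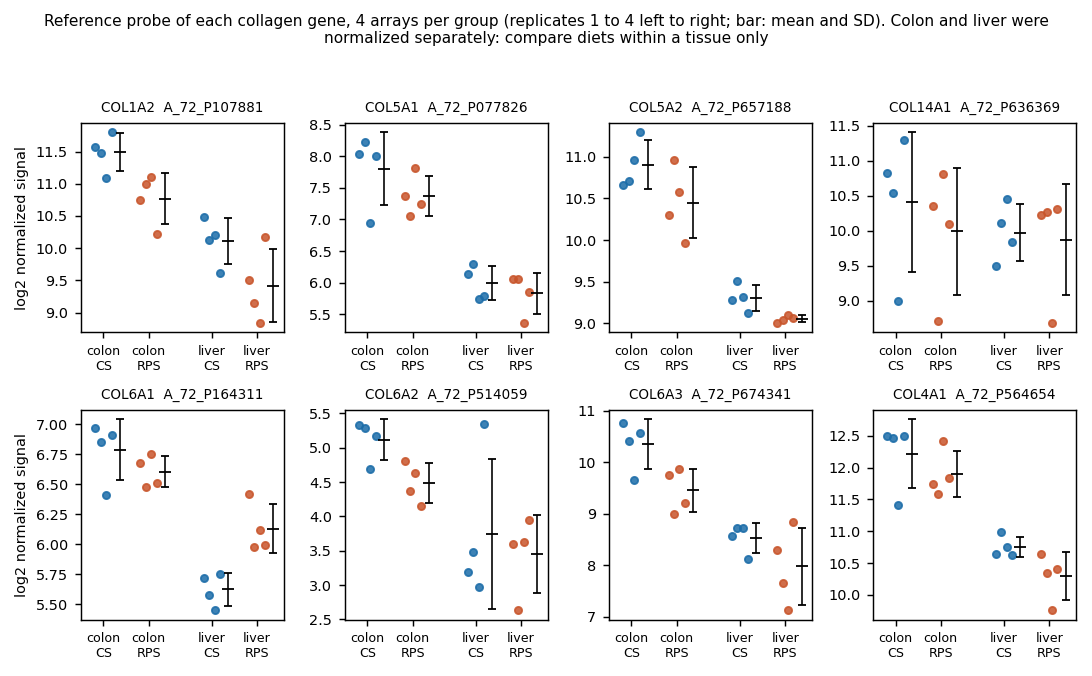
Log2 normalized signal (vertical axis) of the brightest probe of each of 8 collagen genes in the 4 groups, with replicates 1 to 4 as points from left to right and the mean and SD beside them. Colon and liver were normalized separately, so only diets within a tissue are to be compared. The colon RPS points of COL1A2 and COL6A3 lie mostly under the CS points, and the lowest colon CS point of COL14A1, COL5A1 and COL4A1 is replicate 3.

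COL6A3, the longest chain of type VI collagen, had the largest drop of a member in the colon. Its brightest probe, A_72_P674341, read 10.75, 10.41, 9.66 and 10.57 on CS replicates 1 to 4 and 9.75, 9.0, 9.86 and 9.20 on RPS replicates 1 to 4. Of the CS arrays, 3 stood above every RPS array, and CS replicate 3 lay below 2 of them. The means were 10.35 ± 0.48 and 9.45 ± 0.42 (SD, n = 4), a difference of -0.90 with a standard error of 0.30 (95% interval -1.60 to -0.20), or 1.86-fold lower with RPS (limma, adjusted p = 0.810). The call was lost when CS replicate 1, CS replicate 4 or RPS replicate 4 was left out. An exact permutation test (two-sided) had p = 0.0857, where 4 arrays against 4 can give no less than 0.0286.

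The 2 spots of identical COL6A3 sequence repeated each other closely. Over the 8 colonic arrays the signal of A_72_P157511 minus that of A_72_P501554 stayed between -0.19 and -0.07 (SD 0.04), and their diet differences were -0.93 and -0.88. The spread between pigs of a group was much larger than that between spots, with an SD of 0.45 for the CS arrays and 0.43 for the RPS arrays at A_72_P157511. Both probes were called lower, A_72_P157511 also in each fit with 1 array left out, while A_72_P501554 lost the call without CS replicate 1, CS replicate 2, CS replicate 4 or RPS replicate 4.

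The other COL6A3 probes above background gave smaller or opposite differences. A_72_P686971 had a difference of -0.63 (standard error 0.28, adjusted p = 0.924 in limma) and A_72_P071341 one of -0.46 (standard error 0.29). A_72_P204432 had one of -0.08. The probe in the triple helix, A_72_P233842, read 9.0, 8.75, 8.24 and 8.69 with CS and 9.39, 8.56, 9.04 and 9.06 with RPS, a difference of 0.34 (95% interval -0.19 to 0.87) in the other direction that did not pass the test. The 95% intervals of A_72_P674341 and A_72_P233842 did not overlap, but the difference between the probes was not tested. A_72_P431419 and A_72_P341588 were not well above background on any array, and their values carry no direction.

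COL1A2, one of the 2 chains of type I collagen, was read by 2 probes. The brighter, A_72_P107881, gave 11.58, 11.48, 11.09 and 11.80 with CS and 10.75, 10.997, 11.11 and 10.22 with RPS. The groups overlapped by 1 pair only, CS replicate 3 and RPS replicate 3. The mean fell from 11.49 ± 0.30 to 10.77 ± 0.39 (SD, n = 4), by 1.65-fold, with a log2 difference of -0.72 (standard error 0.23, limma adjusted p = 0.803). Without RPS replicate 4 it was not called. The second probe, A_72_P192797, had a difference of -0.27 with a 95% interval from -1.21 to 0.67.

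The further COL1A1 probe A_72_P442299, for the partner chain of type I, read 9.13, 9.05, 8.08 and 9.26 with CS and 8.16, 7.92, 8.66 and 7.54 with RPS. Here too 3 CS arrays stood above every RPS array. The difference was -0.81 (standard error 0.33), 1.75-fold lower with RPS and past both thresholds (limma adjusted p = 0.911). The call was lost under 9 of 20 alternatives, among them the methods' t-test and leaving out CS replicate 1, 2 or 4 or RPS replicate 1, 2 or 4. Another probe under the COL1A1 name went the opposite way. A_72_P198052, tied to the gene only by similarity to a bovine sequence, read 8.18, 7.97, 7.89 and 7.85 with CS and 9.02, 8.86, 9.44 and 9.65 with RPS. The groups did not overlap, as at 5.08% of all probes in this direction, and the difference was 1.27 (95% interval 0.82 to 1.72), 2.41-fold higher with RPS (limma adjusted p = 0.238). The 2 probes under the COL1A1 name thus moved in opposite directions, and the remaining one, A_72_P087181, was not well above background on any array.

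Type V chains differed in how evenly their probes moved. For COL5A2 the 5 differences lay between -0.71 and -0.29, all lower with RPS, and 1 of them was called. That probe, A_72_P591869, read 9.32, 9.39, 9.61 and 10.11 with CS and 8.80, 9.37, 9.05 and 8.37 with RPS, so that only RPS replicate 2 reached into the CS range. Its difference was -0.71 (standard error 0.26, limma adjusted p = 0.886), and the call was lost under 7 of 20 alternatives, among them leaving out CS replicate 3, CS replicate 4, RPS replicate 1 or RPS replicate 4 and the normexp correction. The brightest COL5A2 probe, A_72_P657188, gave 10.66, 10.71, 10.96 and 11.30 with CS and 10.30, 10.97, 10.58 and 9.96 with RPS. Its difference of -0.46 (95% interval -1.03 to 0.12) did not pass the test.

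For COL5A1 the 3 probes disagreed. A_72_P077826, the brightest, read 8.04, 8.23, 6.95 and 8.0 with CS and 7.37, 7.06, 7.82 and 7.25 with RPS, a difference of -0.43 (95% interval -1.15 to 0.30). CS replicate 3 was the lowest of all 8 arrays. A_72_P495841 had a difference of -0.70 (95% interval -1.55 to 0.15) and A_72_P444639 one of 0.56 (95% interval -0.19 to 1.31), and 0 of the 3 passed the test.

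The remaining type VI chains were read by fewer probes. COL6A2 at A_72_P514059 read 5.33, 5.28, 4.68 and 5.17 with CS and 4.81, 4.37, 4.63 and 4.15 with RPS, a difference of -0.62 (standard error 0.20, limma adjusted p = 0.789) that was called. The call was lost under 7 of 20 alternatives, among them leaving out CS replicate 1, CS replicate 2, RPS replicate 2 or RPS replicate 4. Another of the 7 was the normexp background correction with an offset of 50 added before the log2 step, which drew the difference to -0.19. The second spot of the same sequence, A_72_P267956, had nearly the same difference, -0.66, but a standard error of 0.30 and an unadjusted p above the threshold (limma adjusted p = 0.936). The call thus differed between 2 spots of 1 sequence whose diet differences lay 0.03 apart. COL6A1 at A_72_P164311 read 6.97, 6.85, 6.41 and 6.91 with CS and 6.68, 6.47, 6.75 and 6.51 with RPS, a difference of -0.18 (95% interval -0.53 to 0.17), and the further triple helix probe A_72_P065906 had -0.08. The further COL6A2 probe A_72_P247792 had 0.05, and neither passed the test.

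COL14A1 had 0 called probes of 11 in the colon, with differences from -0.44 to 0.22. Its brightest probe, A_72_P636369, read 10.82, 10.54, 8.99 and 11.30 with CS and 10.35, 8.71, 10.81 and 10.09 with RPS. The spread within a diet, with SDs of 1.00 and 0.90, was more than the difference of -0.42 (95% interval -1.86 to 1.02), so that a change of 2-fold in either direction lay within the interval. COL4A1 was lower with RPS at all 5 probes, by values from -0.55 to -0.12, of which 0 were called. Its brightest probe, A_72_P564654, read 12.50, 12.46, 11.41 and 12.50 with CS and 11.74, 11.59, 12.42 and 11.83 with RPS.

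**Figure D2:**
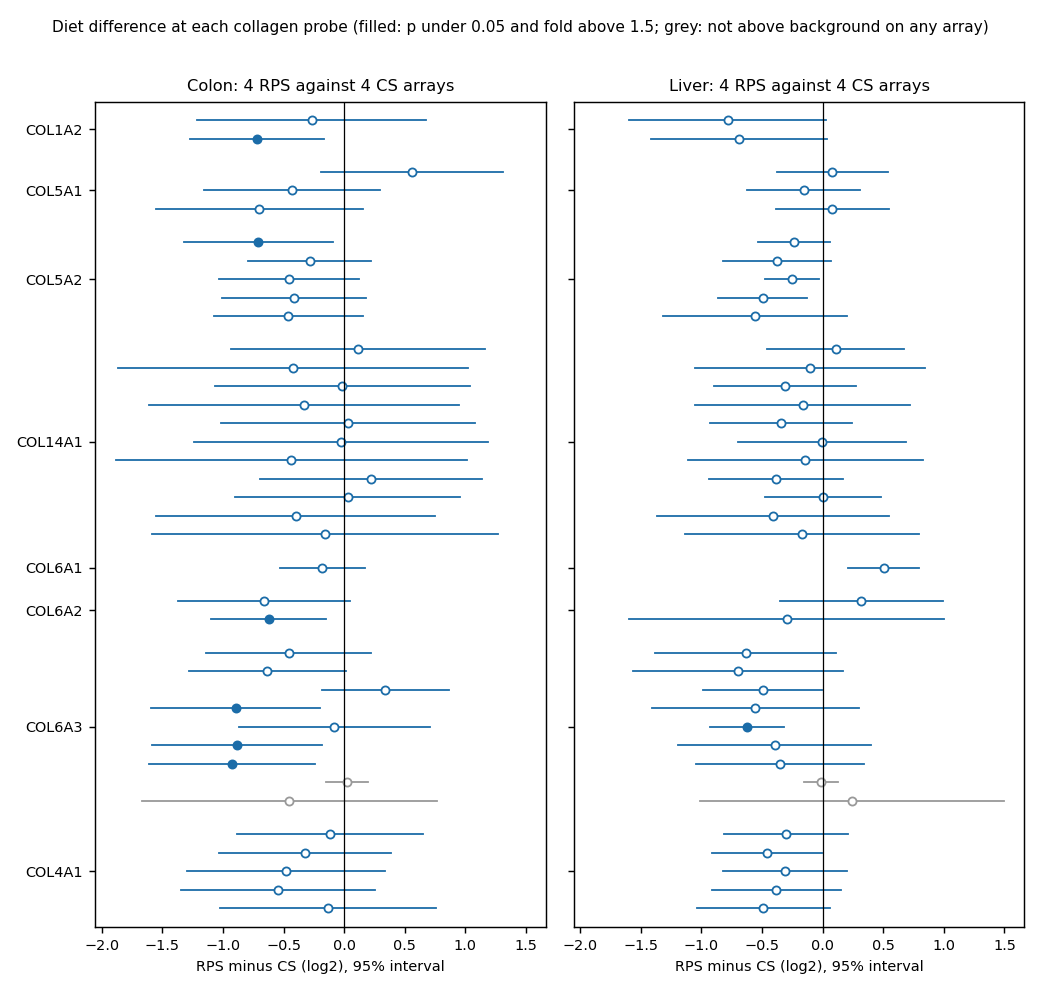
Difference RPS minus CS (log2, horizontal axis) with its 95% interval from limma at each of the 33 probes and the 5 probes of COL4A1, grouped by gene, in colon (left) and liver (right). Filled points passed both thresholds (6 in colon, 1 in liver), and grey marks the 2 COL6A3 probes not above background on any array. Most points lie left of 0 in both tissues, and those of COL14A1 lie on both sides of it in the colon.

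The same arrays were low at most collagen probes. Of the 31 probes whose signal exceeded background on every colonic array, CS replicate 3 was the lowest CS array at 28 and RPS replicate 2 the lowest RPS array at 22. Both held for all 11 probes of COL14A1, for the 7 bright probes of COL6A3, for the 3 of COL5A1 and for the 5 of COL4A1. COL5A2 and COL6A2 differed, since RPS replicate 4 was the lowest RPS array at 5 of 5 and 2 of 2 of their probes. With CS replicate 3 left out, 12 of the 33 probes were called lower with RPS, against 3.29% of all probes in either direction. With CS replicate 1 left out 3 were called (2.92% of all probes), with CS replicate 4 left out also 3 (2.45%), and with RPS replicate 4 left out 1 (2.81%), which as a share of the 33 was near the background.

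Markers of other cells moved with the same 2 arrays. The 13 colonic epithelium genes on the array, such as KRT20 and SLC26A3, summed to a normalized signal of 206899 on CS replicate 3 and 328472 on RPS replicate 2, against 607127 to 728737 on the other 6. The 9 leucocyte genes, such as PTPRC and CD2, summed to 22622.9 and 17624.9 on these arrays, against 4917.77 to 9999 on the others. The 7 fibroblast genes did not set them apart, with sums of 32222.9 and 32480.8 within a range from 23919.8 to 45991.1. The 5 smooth muscle genes summed to 35988.8 on CS replicate 3, against 40267.7 to 41339.5 on the other CS arrays, and to 24834.3 on RPS replicate 2, against 28132 to 34490.6 on the other RPS arrays, the lowest of each diet as for the collagens. With both arrays left out together, 12 of the 33 probes were called lower with RPS and 0 higher, against 5.47% of all probes in either direction, and the 6 probes called on all arrays were among them. COL5A1 then had 2 called probes of 3, COL5A2 had 3 of 5, and COL6A2 had 2 of 2, while COL14A1 still had 0 of 11. These arrays were singled out after their values were seen, and the part of the cell makeup in the diet differences was not tested.

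Between the diets, the fibroblast genes summed to 32211.9 to 45991.1 on the CS arrays and 23919.8 to 32480.8 on the RPS arrays of the colon. Of these 7 genes 6 were lower with RPS, and 1, the mesenchymal growth factor receptor PDGFRB, was called (difference -0.66, limma adjusted p = 0.747), where 2.53% of the 7239 genes with a symbol were called. The 5 smooth muscle genes summed to 35988.8 to 41339.5 with CS and 24834.3 to 34490.6 with RPS, without overlap of the groups, while 4 were lower with RPS and 0 were called. The endothelial genes had sums of 5394.36 to 6804.36 with CS and 4373.12 to 6830.17 with RPS. Of the 9 leucocyte genes 8 were lower with RPS, with a median difference of -0.48 and 0 called, and their sums overlapped, at 7641 to 22622.9 with CS and 4917.77 to 17624.9 with RPS. Of the 13 colonic epithelium genes 2 were lower, with a median of 0.19 and 0 called. The 4 stellate genes measured were all lower with RPS, and the 1 called was again PDGFRB, which both lists hold. Their part in the collagen differences was not tested.

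**Figure D3:**
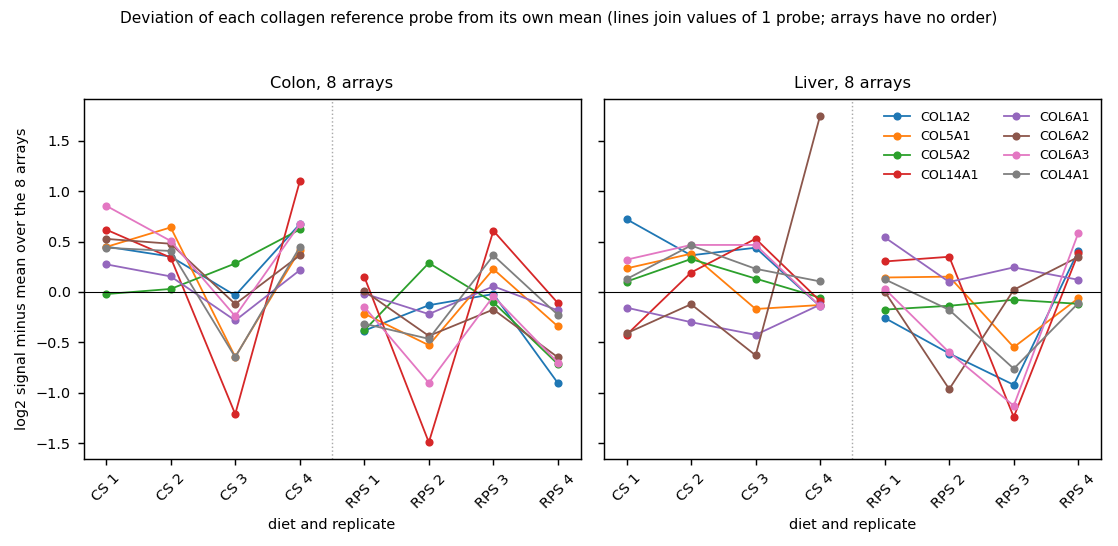
Log2 signal of the brightest probe of each of 8 collagen genes minus its own mean over the 8 arrays of the tissue (vertical axis), by diet and replicate, with lines that join the values of 1 probe within a diet. In the colon, COL14A1 is low on CS replicate 3 and RPS replicate 2, and in the liver most genes are low on RPS replicate 3. The single high COL6A2 point in the liver, on CS replicate 4, was 5.35 against 2.70 at the second spot of the same sequence.

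In the liver, 26 of the 33 probes were again lower with RPS, against 51.0% of all probes, and the median difference was -0.29. Of the 27 probes above background on all 16 arrays, 22 were lower with RPS and 5 higher, with a median of -0.31. The test called 1 of the 33 probes, lower with RPS, where 3.56% of all probes were called in either direction and 1.76% as lower. That share of the collagen probes, 3.03%, was near the background. The smallest adjusted p among them was 0.342 (limma), and across the array 1 probe passed an adjusted 0.05.

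The called probe was A_72_P204432 of COL6A3, with 4.04, 3.83, 4.03 and 4.12 on the liver CS arrays and 3.44, 3.28, 3.13 and 3.66 on the RPS arrays. The groups did not overlap, as at 2.2% of all probes in this direction, and the difference was -0.63 (95% interval -0.93 to -0.32). It was well above background on 2 of the 4 RPS arrays only, and it was not called without RPS replicate 3 or after the normexp correction. At the brightest COL6A3 probe, A_72_P674341, the liver read 8.57, 8.72, 8.72 and 8.11 with CS and 8.28, 7.65, 7.12 and 8.84 with RPS, and the difference of -0.56 (95% interval -1.41 to 0.30) did not pass the test. RPS replicate 4 was the highest of the 8 arrays and RPS replicate 3 the lowest.

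COL1A2 had liver differences of -0.69 at A_72_P107881 and -0.78 at A_72_P192797, and 0 of 2 probes were called (limma adjusted p = 0.676 and 0.671). The brighter probe read 10.48, 10.13, 10.20 and 9.62 with CS and 9.50, 9.15, 8.84 and 10.17 with RPS. The groups overlapped, since RPS replicate 4 lay above CS replicates 2 and 4. COL5A2 was lower at all 5 probes, by values from -0.56 to -0.24, and at A_72_P657188 the groups did not overlap, with 9.28, 9.50, 9.31 and 9.12 with CS and 9.0, 9.04, 9.10 and 9.06 with RPS. That difference was small, -0.25 with a standard error of 0.09, or 1.19-fold, and thus under the fold threshold.

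COL6A1 went the other way in the liver. At A_72_P164311 it read 5.72, 5.57, 5.45 and 5.75 with CS and 6.42, 5.97, 6.12 and 6.0 with RPS, without overlap (as at 2.24% of all probes in this direction), a difference of 0.50 (95% interval 0.21 to 0.80) or 1.42-fold, under the fold threshold (limma adjusted p = 0.423). COL6A2 could not be read firmly, since A_72_P514059 and A_72_P267956 gave -0.29 and 0.32 from the same sequence. On CS replicate 4 the first read 5.35 and the second 2.70, and the spots were well above background on 6 and 2 of the 8 liver arrays. COL14A1 had differences from -0.41 to 0.11 and COL4A1 from -0.49 to -0.30, and 0 probes of either were called. For COL5A1 the differences were 0.08 at A_72_P444639, 0.08 at A_72_P495841 and -0.16 at A_72_P077826, with 0 called. The further COL1A1 probes A_72_P442299 and A_72_P198052 had -0.63 (95% interval -1.52 to 0.25) and 0.13 (95% interval -0.13 to 0.39), and neither was called.

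In the liver, too, 1 array was low at most collagens. Of the 27 probes whose signal exceeded background on every liver array, RPS replicate 3 was the lowest RPS array at 22, among them 11 of 11 for COL14A1 and 2 of 2 for COL1A2. Without RPS replicate 3, 0 of the 33 probes were called in limma, against 3.63% of all probes, and the median difference was -0.13. Without RPS replicate 4, 6 were called, all lower with RPS, against 4.65% of all probes in either direction. Without CS replicate 4 there were 4 (3.81% of all probes), and without RPS replicate 1 there were 2 (3.23%).

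Whether the diet difference itself differed between the tissues was tested over all 16 arrays. Of the 33 probes, 3 passed (unadjusted p under 0.05 and a difference above 1.5-fold), against 3.76% of all probes, and the smallest adjusted p was 0.743 (limma). COL6A1 at A_72_P164311 had a colon difference 0.68 below that of the liver (log2 -0.68, standard error 0.20), and COL6A2 at A_72_P267956 had -0.98, while its identical partner A_72_P514059 had -0.34 and was not called. COL6A3 at its triple helix probe A_72_P233842 had 0.83 (standard error 0.32), since it was 0.34 higher with RPS in the colon and 0.50 lower in the liver. The other 6 bright COL6A3 probes had values from -0.60 to 0.53, of which 0 were called.

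Between the tissues, collagen signals were higher in the colonic mucosa at most genes. The probes of COL14A1 and COL6A1 by the rule did not pass the thresholds below. A probe was called here at an adjusted p under 0.05 with a fold change above 1.5, which 42.2% of all probes passed, 23.4% as higher in colon and 18.7% as lower. Of the 33 probes 17 were called higher in colon and 0 lower, and the median difference was 0.81 against 0.01 over all probes. The called probes belonged to COL1A2 (2 of 2), COL5A1 (2 of 3), COL5A2 (5 of 5), COL6A2 (1 of 2) and COL6A3 (7 of 9). Both uncalled COL6A3 probes were those not well above background on any array. The tissues did not overlap at 6 of the 33 probes. The share of all probes without overlap of the tissues was not counted, so the separations named below have no background.

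**Figure D4:**
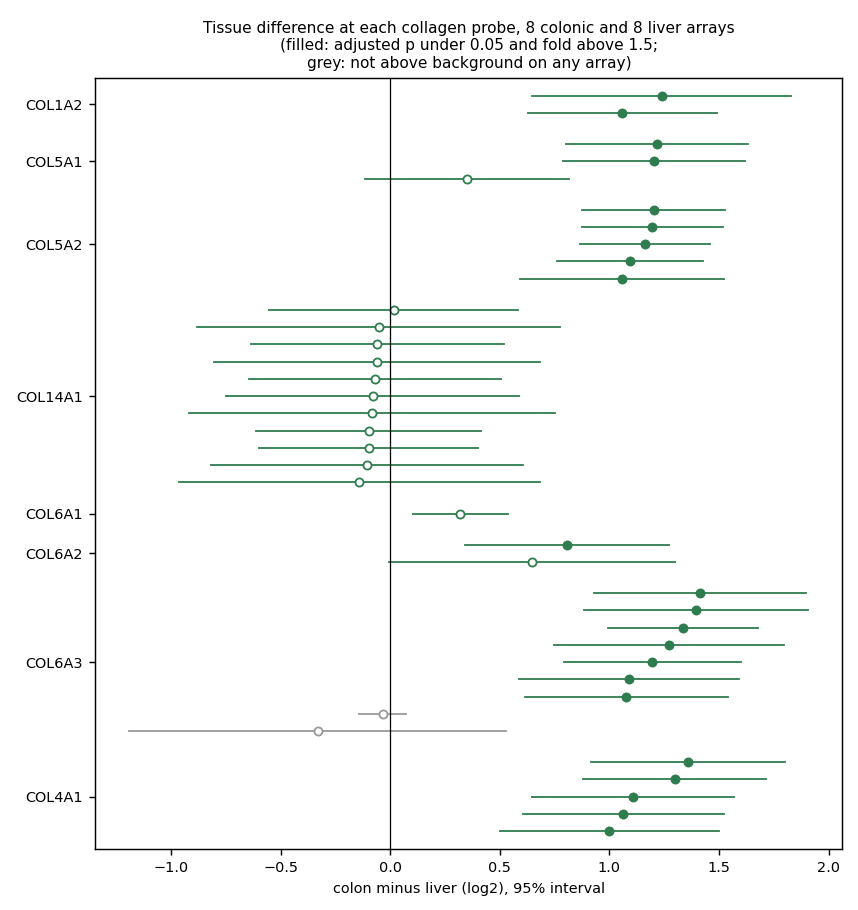
Difference colon minus liver (log2, horizontal axis), averaged over the diets, with its 95% interval from limma at each of the 33 probes and the 5 of COL4A1. Filled points had an adjusted p under 0.05 and a fold change above 1.5 (17 of the 33 and all 5 of COL4A1). The 11 probes of COL14A1 lie within 0.14 of 0, and the called probes lie between 0.81 and 1.41.

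Among the fibril collagens, COL1A2 at A_72_P107881 ranged from 10.06 to 11.70 on the 8 colonic arrays (median 10.96) and from 9.03 to 10.64 on the liver arrays (median 10.04), a difference of 1.06 or 2.08-fold (limma adjusted p = 0.000454). The tissues overlapped, and 4 of the 8 liver arrays lay below every colonic one. COL5A2 at A_72_P657188 ranged from 9.79 to 11.16 (median 10.53) against 9.19 to 9.68 (median 9.30), without overlap, at 2.24-fold (adjusted p = 6.16e-06). COL5A1 at A_72_P077826 ranged from 6.71 to 8.02 (median 7.37) against 5.62 to 6.54 (median 6.20), again without overlap, at 2.30-fold (adjusted p = 0.000106). Its probe A_72_P495841 had a smaller difference, 0.35, that was not called.

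Among the type VI chains, COL6A3 had differences from 1.08 to 1.41 at its 7 bright probes. The triple helix probe A_72_P233842 ranged from 8.03 to 9.20 in colon (median 8.68) and from 6.69 to 7.82 in liver (median 7.35), at 2.53-fold (limma adjusted p = 6.18e-06). The tissues did not overlap there. At COL6A2 the 2 spots of 1 sequence gave 0.65 and 0.81, and only the second was called. COL6A1 at A_72_P164311 had 0.32, or 1.25-fold (adjusted p = 0.016), under the fold threshold, with a difference of 0.66 that was called with the CS arrays alone and of -0.02 with the RPS arrays alone. The differences between the probes of the 3 chains were not tested.

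COL4A1 was called at all 5 probes, with differences from 1.00 to 1.36. At A_72_P564654 the colonic arrays ranged from 11.28 to 12.45 (median 12.04) and the liver arrays from 9.93 to 11.12 (median 10.78), without overlap, at 2.46-fold (limma adjusted p = 5.49e-05). The COL1A1 probe A_72_P442299 was called too, at 0.75 or 1.68-fold (adjusted p = 0.0261), but lost the call under 9 of 27 alternatives, among them either diet alone, the normexp correction and leaving out colon CS replicate 4, colon RPS replicate 3, liver CS replicate 2, liver CS replicate 4 or liver RPS replicate 3. Other probes tied to a gene by similarity alone went apart from the probes of the rule. The one named for COL5A1, A_72_P356008, had -5.33 and was 40.35-fold lower in colon, where the 3 probes of the rule lay between 0.35 and 1.22, and the one named for COL6A1, A_72_P006136, had 2.28, against 0.32 at A_72_P164311 and 0.13 at the triple helix probe A_72_P065906. The opposite-strand probe A_72_P053171, named for COL1A2, had 0.16 where the probes of the rule had 1.06 and 1.24.

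COL14A1 did not differ between the tissues beyond its error. The differences of its 11 probes lay between -0.14 and 0.02, with 0 called. At A_72_P636369 the colonic arrays ranged from 8.51 to 11.16 (median 10.28) and the liver arrays from 8.87 to 10.60 (median 10.33), and the difference of -0.05 had a 95% interval from -0.88 to 0.77. At the tightest probe, A_72_P691868, the difference was -0.10 with a 95% interval from -0.60 to 0.40, which leaves out a difference as large as those of COL5A2. The triple helix probe A_72_P585771 had -0.11 (95% interval -0.82 to 0.61).

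Markers of connective tissue cells also differed between the tissues. The 7 fibroblast genes summed to 23139.7 to 46596.6 on a colonic array and 6225.7 to 13560.2 on a liver array. Of them 4 were called higher in colon, namely the proteoglycans DCN (5.57-fold) and LUM (2.68-fold), the intermediate filament VIM (3.42-fold) and S100A4 (2.22-fold), and 2 were called lower, THY1 (2.88-fold) and PDGFRB (1.58-fold). Of the 5 smooth muscle genes, ACTA2 (3.17-fold) and CNN1 (2.75-fold) were called higher and 0 lower, with sums of 24322 to 41767 in colon and 16120.5 to 27707.3 in liver. Of the 4 hepatic stellate genes 0 were called higher and 2 lower, LRAT and again PDGFRB, and of the 7 endothelial genes 1 was called higher and 5 lower. Their part in the collagen differences was not tested, and 51.5% of the 7239 genes with a symbol were called between the tissues.

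Genes that work on collagens were read at the brightest probe of each gene, where 2.53% of the 7239 genes with a symbol were called between the diets in the colon, 3.33% in the liver and 51.5% between the tissues. Of 9 measured genes for the folding, cleavage and crosslinking of collagen, 0 rose and 1 fell with RPS in the colon. That gene, the crosslinking oxidase LOXL4, was well above background on 2 of 4 colon CS arrays and on 0 of the RPS arrays. Its means were 3.19 with CS and 1.99 with RPS (limma adjusted p = 0.891), and signals so near background give no firm fold change. In the liver the collagen chaperone FKBP10 fell by 0.76 on the log2 scale (adjusted p = 0.455), and 0 rose. Between the tissues, the lysyl hydroxylase PLOD2 (1.85), FKBP10 (1.08) and the crosslinking enzyme LOX (0.98) were called higher in colon and the procollagen protease BMP1 was called lower (-1.0).

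Of 16 other collagen genes, 1 fell with RPS in the colon and 4 fell in the liver, and 0 rose in either. COL5A3, the remaining chain of type V, fell by 0.94 on the log2 scale in the colon (limma adjusted p = 0.919). In the liver COL5A3 fell by 0.72 (adjusted p = 0.398), but it was well above background on only 1 of the 4 liver RPS arrays. COL8A1, a short-chain network collagen of vessel walls, fell by 1.55 in the liver (adjusted p = 0.382), and COL4A3 and COL4A6 were called there from signals that were well above background on at most 1 of the 8 arrays. Between the tissues 7 were called higher in colon and 2 lower. The largest were COL17A1 of epithelial anchoring junctions, 2.87 higher in colon, and COL7A1 of anchoring fibrils, 1.83 higher. COL8A1 was 1.40 lower (log2 -1.40). The calls of COL4A6 and COL12A1 (higher) and COL4A3 (lower) came from signals well above background on at most 1 array of any group.

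Of 4 collagen receptors, 0 were called between the diets in either tissue, and DDR1 (3.04), ITGA2 (1.53) and DDR2 (1.06) were called higher in colon. Of 7 genes for the breakdown of collagen and its control, 7 were lower with RPS in the colon and 1, the metalloproteinase inhibitor TIMP2, was called (difference -0.93, standard error 0.27, limma adjusted p = 0.718). Its means were 8.79 with CS and 7.86 with RPS in the colon, and 7.30 and 7.35 in the liver. Its diet difference in the colon was 0.99 below that in the liver (log2 -0.99, adjusted p = 0.786). In the liver 0 of the 7 were called. The matrix metalloproteinases MMP1, MMP2 and MMP9 and the inhibitor TIMP1 were called higher in colon, MMP1 by at least 43.6-fold, since it was not well above background on the liver arrays.

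The genes whose colonic pattern was most like that of the collagens were found by the root mean square difference between a gene's signals on the 8 arrays, minus their mean, and the average of the 7 brightest member probes treated in the same way. That average stood at 0.45, 0.36, -0.32 and 0.58 on CS replicates 1 to 4 and at -0.14, -0.49, 0.08 and -0.51 on RPS replicates 1 to 4. Of 5515 genes whose signal exceeded background on all 8, the closest were the actin-severing protein GSN (0.13), CPED1 (0.14), the coagulation initiator F3 (0.14), LOX (0.15) and DKK3 (0.16), against a median of 0.56 over all of them. The likeness is a description over 8 arrays, in which the array pattern within a diet counts as much as the diet. LOX was also among the genes called higher in colon than in liver.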

How the data were processed

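The collagen members and the further gene lists were chosen with earlier results of these data known. The authors scanned each array and had Agilent Feature Extraction 10.7 write the deposited intensity values, with background subtracted and arrays not adjusted to each other. They also deposited a table of log2 values, used here as an alternative. The gene build of the array is not given in the sources used here, so no coordinates are printed.

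From the intensities, outlier spots were set to missing, log2 signals were quantile normalized (8 arrays of a tissue, or 16), with the mean taken where a probe had several spots. Differences were fitted with limma 3.58.1 in R 4.3.3 on all 43603 probes and adjusted by Benjamini-Hochberg, and the diets were compared at the thresholds that the methods name. The brightest probe over 16 arrays stood for a gene. Named were every member at each probe, up to 6 called genes per list and direction, and the 5 genes of most similar colonic pattern. The procedure was tested on simulated data. Sequences came from the array files and symbols from RefSeq. Labels do not say that equal numbers in both tissues are 1 pig. Deviations of equal numbers correlated between tissues with r from 0.15 to 0.33 for CS and from -0.07 to 0.13 for RPS, and from -0.48 to 0.48 between diets. Unequal numbers were not compared, so these values cannot decide whether the numbers pair samples. The numbers were not taken to pair them. P-values measure the spread between pigs, and the number of arrays limits the precision. Figures were drawn with matplotlib 3.10.9.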

Additional observations from a re-analysis of the deposited data

Results flagged for a closer look

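In 40 groups of 4 arrays at the brightest probes, the gap between the outermost array and its neighbour was set against the 95% critical value of Dixon's test, which chance passes in about 1 of 20 groups, and 2 passed. COL4A1 at A_72_P564654 was lowest on colon CS replicate 3, with a gap of 0.965 of the range of the group. COL14A1 at A_72_P636369 was lowest on liver RPS replicate 3, with a gap of 0.950.

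The diet difference in the colon differed from that in the liver at 4 of the 47 probes read (unadjusted p under 0.05 in limma, above 1.5-fold), where 3.76% of all probes passed. They were A_72_P198052, named for COL1A1 by similarity (1.17, adjusted p = 0.320), A_72_P164311 of COL6A1 (-0.68), A_72_P267956 of COL6A2 (-0.98) and A_72_P233842 of COL6A3 (0.83). None of the 4 passed the adjustment over all probes.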

How the results depend on the processing

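The collagen probes called between the diets in the colon numbered 6, and from 1 to 12 when 1 array was left out. They numbered 0 with a fold change above 2 and 3 with the replicate number as a block, although the numbers were not taken to pair the pigs, and 12 with CS replicate 3 and RPS replicate 2 left out together, an alternative chosen after seeing the data. The normexp background correction called 4 there. The methods' t-test called 6 in the colon and 1 in the liver, and 0 of the 33 probes after Benjamini-Hochberg adjustment in either. In the liver the count of 1 became 2 when arrays were scaled to the 75th percentile, 2 with all 16 arrays in 1 fit, 3 when only probes above background throughout 1 of the groups were tested, and 0 with a fold change above 2, and lay from 0 to 6 when 1 array was left out. The count for the diet difference between tissues was 0 instead of 3 after the normexp correction and with a fold change above 2, and 3 with the pig as a random block. The 17 calls between the tissues numbered 13 to 18 under every alternative run. The normexp correction also drew the median difference of the member probes between the tissues from 0.81 to 0.18. It added an offset of 50 to the signals before the log2 step, which makes log2 differences at dim probes smaller. The median signal of an array before normalization was 30.6 to 70.8. The other alternatives kept their counts within 1.5 times. Beside the main fits, the share of all probes called was given above only for some fits with arrays left out. For the remaining settings it is not given here, so their counts cannot be set against a background. The part of the offset in the changes under normexp, and the cause of the other changes, were not tested.

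Of single probes, COL6A1 colon minus liver turned from 0.32 to -0.021 with RPS arrays only, COL14A1 from -0.05 to 0.11 with CS arrays only and A_72_P198052 from -0.05 to 0.54 with RPS arrays only. Leaving out 1 array turned the direction of 9 small differences at brightest probes: COL14A1 in colon (-0.90 to 0.0049) and liver (-0.26 to 0.29) and between tissues (-0.25 to 0.19), COL6A2 in liver (-0.55 to 0.24), A_72_P198052 between tissues (-0.12 to 0.017), and the diet difference between tissues of COL14A1 (-0.82 to 0.10), COL1A2 (-0.26 to 0.17), COL4A1 (-0.19 to 0.22) and A_72_P442299 (-0.50 to 0.0038). None of the values that turned direction was called. With CS arrays only, COL6A1 (0.66) and A_72_P198052 (-0.63) were called between the tissues.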
